A study of Mus musculus with 6 samples.

Results

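Genes of glycolysis and of the response to low oxygen were followed in mouse embryonic stem (ES) cells with and without Med23. Its protein belongs to Mediator, the large co-activator complex through which DNA-bound factors act on RNA polymerase II. A list of 42 genes was used, and a gene was read by the probe set that the platform annotation gives to its symbol alone, the brightest one over 6 arrays where there were several. In this way 38 of the 42 genes were measured, out of 18193 genes on the array. Gpi1, Eno1 and Bnip3l had no such probe set, and Gapdh was read alone only by array controls, so these 4 genes were not tested. The list holds 17 glycolytic enzymes (14 measured), 6 transporters and flux regulators (all measured), 7 genes of oxygen sensing and the HIF factors (all measured) and 12 other HIF targets (11 measured). The wild-type group and the Med23 knockout group each held 3 arrays, described as biological replicates, of ES cells of strain 129SV. Both groups had been kept in fresh complete ES cell medium for 24 hours before harvest. The labels give no oxygen level, no sample labelled as hypoxic, and no statement on how many knockout clones were used. All levels are log2 values as deposited, and all changes are knockout minus wild-type on that scale.

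Glycolysis splits glucose into pyruvate in the cytosol, and lactate dehydrogenase turns pyruvate into lactate, a route that ES cells are known to use heavily even where oxygen is plentiful. Hypoxia-inducible factors (HIF) pair an oxygen-controlled alpha subunit (HIF1A, or EPAS1, also called HIF2A) with the partner ARNT. With oxygen present, prolyl hydroxylases of the EGLN family mark the alpha subunits for destruction through VHL. When oxygen is scarce the alpha subunits persist, and many glycolytic genes and genes such as Bnip3, Egln3 and P4ha2 are known targets.

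The HIF dimer recognises a short core written ACGTG or GCGTG, so these letters were searched, on both strands, in RefSeq promoter sequences of the GRCm38.p6 build (250 bases before to 50 after a gene's start, 300 in all). Of the 38 measured genes, 35 had a promoter there, and 25 of the 35 held ACGTG in at least 1 promoter, against 26.1% of 14452 genes tested on the array that had a promoter. With GCGTG allowed as well, the number was 32 of 35, against 59.3%. Per promoter rather than per gene, 19.6% of 32851 promoters held ACGTG and 43.8% held either core. Many members are on the list as known HIF targets, so these shares are a description. Both cores contain CG, and the members' promoters held more of that pair, with a median of 25 in a gene's richest promoter against 18 over the tested genes. Among members, ACGTG was present for 5 of 10 genes that rose, all 4 that fell and had a promoter, and 16 of 21 that did not pass the test. Of the genes whose promoters follow, Ldhb, Slc16a3, Slc2a1, Egln3, P4ha2 and Bnip3 were among those with the largest changes in their role groups, and Ldha stands beside Ldhb because this pair of isozyme genes differed in the direction of their estimates. Capitals mark the cores on either strand, so that a core of the opposite strand appears as its reverse complement; a CACGTG reads as ACGTG on both strands and appears as 1 stretch, and overlapping matches are merged. For Ldha the first of 2 promoters in the table is given.
Ldha, chr7:46845554-46845853, plus strand: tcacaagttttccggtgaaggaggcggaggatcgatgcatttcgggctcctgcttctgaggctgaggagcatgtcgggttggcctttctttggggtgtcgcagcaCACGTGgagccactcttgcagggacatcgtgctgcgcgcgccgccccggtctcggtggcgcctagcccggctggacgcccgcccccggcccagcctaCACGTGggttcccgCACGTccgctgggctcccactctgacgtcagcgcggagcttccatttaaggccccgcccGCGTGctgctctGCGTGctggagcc
Ldhb, chr6:142507908-142508207, minus strand: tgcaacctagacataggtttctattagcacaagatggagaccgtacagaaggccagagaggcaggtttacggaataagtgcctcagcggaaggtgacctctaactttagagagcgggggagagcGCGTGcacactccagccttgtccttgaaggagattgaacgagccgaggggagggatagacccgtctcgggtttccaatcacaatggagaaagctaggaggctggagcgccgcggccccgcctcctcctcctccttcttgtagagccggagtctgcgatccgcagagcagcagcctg
Slc16a3, chr11:120948817-120949116, plus strand: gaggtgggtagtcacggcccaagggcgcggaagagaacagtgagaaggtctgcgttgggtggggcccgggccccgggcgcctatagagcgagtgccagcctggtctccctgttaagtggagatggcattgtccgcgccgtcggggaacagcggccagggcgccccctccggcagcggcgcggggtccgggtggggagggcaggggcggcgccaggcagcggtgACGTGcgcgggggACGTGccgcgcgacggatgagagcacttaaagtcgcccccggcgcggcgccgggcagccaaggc
Slc2a1, chr4:119108495-119108794, plus strand: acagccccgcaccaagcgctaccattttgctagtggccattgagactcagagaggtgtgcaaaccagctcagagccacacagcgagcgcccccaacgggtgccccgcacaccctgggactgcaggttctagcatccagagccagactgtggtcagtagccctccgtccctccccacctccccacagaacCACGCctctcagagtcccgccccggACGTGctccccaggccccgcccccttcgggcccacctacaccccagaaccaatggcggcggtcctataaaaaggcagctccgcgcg
Egln3, chr12:54203825-54204124, minus strand: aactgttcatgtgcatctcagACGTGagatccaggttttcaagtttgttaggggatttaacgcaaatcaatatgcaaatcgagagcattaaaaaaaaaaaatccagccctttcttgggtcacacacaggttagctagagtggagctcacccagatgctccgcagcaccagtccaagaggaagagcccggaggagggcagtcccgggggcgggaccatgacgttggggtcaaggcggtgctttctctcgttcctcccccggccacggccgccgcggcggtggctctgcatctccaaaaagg
P4ha2, chr11:54100674-54100973, plus strand: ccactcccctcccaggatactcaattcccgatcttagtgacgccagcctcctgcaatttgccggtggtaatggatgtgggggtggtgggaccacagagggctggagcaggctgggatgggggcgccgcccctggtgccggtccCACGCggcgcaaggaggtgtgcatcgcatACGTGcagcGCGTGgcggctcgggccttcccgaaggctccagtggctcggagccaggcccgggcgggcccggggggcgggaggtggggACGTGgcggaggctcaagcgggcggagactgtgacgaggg
Bnip3, chr7:138909457-138909756, minus strand: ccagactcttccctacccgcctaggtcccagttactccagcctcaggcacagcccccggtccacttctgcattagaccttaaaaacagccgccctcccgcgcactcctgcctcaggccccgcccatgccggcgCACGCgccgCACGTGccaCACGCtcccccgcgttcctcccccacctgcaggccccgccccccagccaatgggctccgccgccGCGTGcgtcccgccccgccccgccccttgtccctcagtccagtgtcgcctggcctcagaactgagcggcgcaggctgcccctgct
The Ldha promoter held 5 capitalised stretches and that of Ldhb held 1. Those of Slc16a3, Slc2a1 and Egln3 held 2, 2 and 1, and those of P4ha2 and Bnip3 held 4 each. A match is a stretch of letters and shows no binding.

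The arrays agreed closely within groups, with correlations over probe sets of 0.993 to 0.9974 among wild-type and 0.9978 to 0.9981 among knockout arrays, against 0.9883 to 0.9911 between groups. Their number limits the precision of every value here, and wild-type replicate 1 had the lowest correlations within its group. The ES cell label was checked on 8 markers of pluripotent cells. Pou5f1, Nanog, Sox2, Zfp42, Esrrb, Dppa5a and Utf1 did not pass the test, Tdgf1 fell (-0.28), and the summed linear level of the 8 was 52929 to 56437 in wild-type and 53100 to 54371 in knockout arrays. Of 12 endoderm markers, 11 fell, and the summed linear level of the 12 was 4685 to 5821 in wild-type against 980 to 1100 in knockout arrays. Of those that fell, Gata4, Sox7, Col4a1 and Col4a2 lie among genes that were lower as well. The median changes of their nearest brighter genes (mean above 7, up to 10 on each side) were -0.65, -0.61, -0.53 and -0.50. Around the other endoderm markers that fell, such medians lay from 0.02 to 0.16. The part of these chromosome stretches was not tested. Trophoblast, mesoderm, neural and fibroblast markers gave 3 of 9, 1 of 5, 2 of 6 and 1 of 8 lower and 0, 0, 1 and 1 higher. The 3 trophoblast markers that fell were the keratin genes Krt7, Krt8 and Krt18, while Cdx2, Eomes, Elf5, Gata3, Tfap2c and Hand1 did not pass the test. The part of any such cells in the changes below was not tested, and in bulk samples fewer cells of a type and less RNA per cell cannot be told apart.

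Of the 38 members, 10 rose and 5 fell at the threshold of 0.05 on the adjusted p (limma, moderated over all probe sets, Benjamini-Hochberg adjustment), and 23 did not pass. That is 39.5% of the members, against 18.9% of all genes tested, where 8.53% were higher and 10.4% lower. Of the genes whose higher group mean exceeded the array median (4.62, the median of the values of all probe sets), which holds for all members but Adm, 27.2% passed, made up of 12.3% higher and 14.9% lower. Changes of at least 2-fold past the test were seen for 4 members, Bnip3 and Ldhb higher and Epas1 and P4ha2 lower, and for 2.61% of all genes. The median change was 0.16 over the members and 0.02 over all genes. Whether one role group differed from another was not tested.

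**Figure D1:**
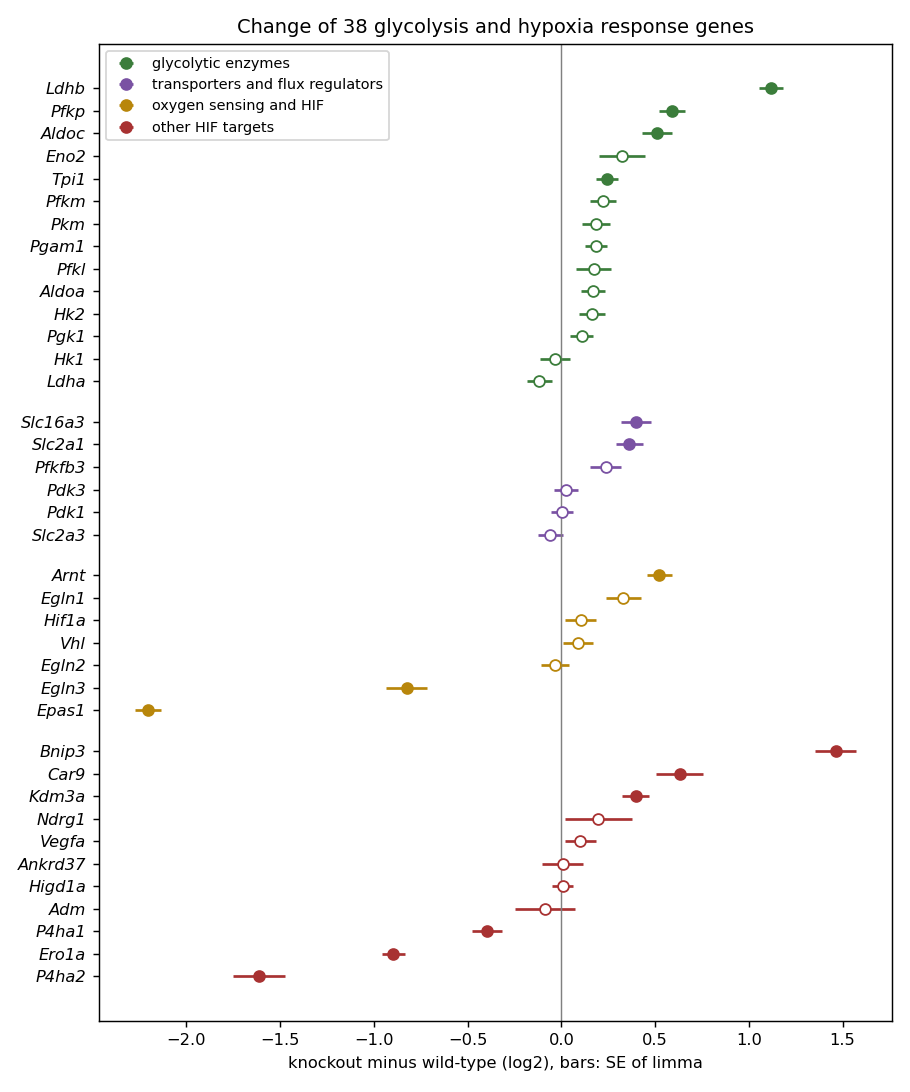
Change of each of the 38 measured members (x axis, knockout minus wild-type, log2; bars are the SE of limma), ordered within 4 role groups by colour. Filled points passed the test at an adjusted p under 0.05. Filled points of the 2 upper groups all lie right of 0, and those of the 2 lower groups lie from -2.21 for Epas1 to 1.46 for Bnip3.

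Glucose enters through facilitative transporters. Slc2a1, which encodes the widespread transporter GLUT1, was 12.13, 12.08 and 11.94 in wild-type replicates 1 to 3, respectively, and 12.43, 12.41 and 12.40 in knockout replicates 1 to 3. The groups did not overlap, and the gene rose by 0.36 (SE 0.07, limma adjusted p = 0.0158), or 1.29-fold. A further probe set of the gene rose too, and the remaining one did not pass (adjusted p = 0.0569). Slc2a3, which encodes the high-affinity neuronal-type transporter GLUT3, lay between 12.85 and 13.02 on all 6 arrays with overlapping groups (change -0.06, SE 0.07, adjusted p = 0.646). The difference between these 2 changes was 0.42, with an exact permutation p of 0.1, the smallest that 3 arrays against 3 can give.

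Of the upper enzymes of glycolysis among the members, Pfkp, Aldoc and Tpi1 rose and the others did not pass. The hexokinases, which trap glucose in the cell as its phosphate, did not pass: Hk1 overlapped between groups (-0.03, SE 0.08, adjusted p = 0.845), and Hk2 had every knockout array above the wild-type arrays at a change of 0.16 (SE 0.07, adjusted p = 0.196). Phosphofructokinase, which commits sugar to glycolysis, is built from 3 kinds of subunit. Its platelet-type subunit gene Pfkp was 9.70, 9.60 and 9.69 in wild-type and 10.18, 10.24 and 10.33 in knockout arrays. These values were apart by more than the spread of either group, and Pfkp rose by 0.59 (SE 0.07, limma adjusted p = 0.00173), or 1.5-fold. Of its dimmer probe sets one rose by 1.22 (adjusted p = 0.00192) and the other changed by 0.30 (adjusted p = 0.0521). The muscle and liver subunit genes Pfkm and Pfkl had changes of 0.22 (adjusted p = 0.0806) and 0.17 (adjusted p = 0.311), and their changes minus that of Pfkp came to -0.37 and -0.42 (exact permutation p = 0.1 each).

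Aldolase splits the 6-carbon sugar. Aldoc, its brain-type gene, was 8.45, 8.36 and 8.58 in wild-type and 9.0, 8.89 and 9.02 in knockout arrays and rose by 0.51 (SE 0.08, limma adjusted p = 0.00622), or 1.42-fold, on 1 of its 2 probe sets. The other Aldoc probe set was dim, with means of 2.59 and 2.70. Aldoa, the widespread aldolase gene, changed by 0.17 (SE 0.06, adjusted p = 0.139), though the dimmest of its 5 probe sets rose by 0.24 (adjusted p = 0.0436). Tpi1, the triose phosphate isomerase gene, rose by 0.24 (SE 0.06, adjusted p = 0.0324), from 12.16, 12.11 and 12.12 to 12.37, 12.36 and 12.39. The groups did not overlap, and the change stayed between 0.23 and 0.26 when any 1 array was left out. Its call was lost in most of those fits: leaving out wild-type replicate 2 or 3 gave adjusted p = 0.0886 and 0.0682, and leaving out knockout replicate 1, 2 or 3 gave 0.104, 0.104 and 0.124.

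Of the payoff steps, those that return ATP and pyruvate, no enzyme gene tested among the members passed. Pgk1, which makes the first ATP, changed by 0.11 (adjusted p = 0.321), the mutase gene Pgam1 by 0.18 (adjusted p = 0.0865), the pyruvate kinase gene Pkm by 0.18 (adjusted p = 0.172) and the neuronal enolase gene Eno2 by 0.32 (SE 0.12, adjusted p = 0.144). In each of these 4 genes all knockout arrays lay above all wild-type arrays. Eno3, an enolase gene outside the members and named after its values were seen, rose by 0.30 (limma adjusted p = 0.0318). Pgam2, Pgk2, Gapdhs and Pklr, also outside the members, did not pass. Gapdh could be read only on 3 array control probe sets outside the fit; there the group means differed by 0.02, 0.03 and 0.03, and no test was made.

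Lactate dehydrogenase is built from A and B subunits, of which the A form is known to favour lactate production and the B form the return to pyruvate. Ldhb was 10.60, 10.52 and 10.66 in wild-type and 11.69, 11.69 and 11.74 in knockout arrays. The groups lay far apart, and Ldhb rose by 1.12 (SE 0.06, limma adjusted p = 8.95e-05), or 2.17-fold, on all 4 of its probe sets (1.12 to 1.27). Ldha was 13.17, 13.15 and 13.29 in wild-type and 13.09, 13.07 and 13.10 in knockout arrays. Here the knockout arrays were the lower ones, by -0.12 (SE 0.07, adjusted p = 0.319), which did not pass. The change of Ldha minus that of Ldhb was -1.23 (exact permutation p = 0.1).

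Over the 14 enzymes, 4 rose, none fell and 10 did not pass, with a median change of 0.18. The share past the test was 28.6%, against 18.9% of all genes. It was close to the 27.2% found among genes whose higher group mean exceeded the array median. Every knockout array was above every wild-type array for 12 of the 14 enzymes, and below for Ldha. Over all genes, 21.4% were apart with the knockout above and 19.5% with the knockout below. The first of these shares was larger among brighter genes and was 36.0% among 1760 genes with means above 10 and up to 12; the median change of those genes was 0.04. The count of 12 was the same after quantile normalization and after centring each array on its median. How many enzymes passed depended on the settings, since 10 of 14 rose when limma's prior variance was allowed to follow brightness, and 7 rose when all probe sets of a gene were averaged.

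A few genes around the pathway set the fate of fructose phosphate and pyruvate. Pfkfb3 makes the activator of phosphofructokinase and changed by 0.24 (SE 0.08, adjusted p = 0.118), with the knockout arrays above the others. The pyruvate dehydrogenase kinases, which inhibit the pyruvate dehydrogenase complex, gave no call on their brightest probe sets: Pdk3 changed by 0.02 (adjusted p = 0.861) and Pdk1 by 0.002 (SE 0.06, adjusted p = 0.989). Pdk1 was between 11.08 and 11.13 on all 6 arrays. Its 4 probe sets did not move as one, however. One rose from a mean of 9.07 to 9.46 (adjusted p = 0.00927), and another fell from 6.23 to 3.25, below the array median (change -2.99, SE 0.12, limma adjusted p = 2.69e-05). The transcripts that those probe sets read were not analysed here. Slc16a3, which encodes the lactate exporter MCT4, was low on the arrays, at 5.25, 5.29 and 5.10 in wild-type and 5.71, 5.57 and 5.56 in knockout, and rose by 0.40 (SE 0.08, adjusted p = 0.0172). Its call ended without knockout replicate 1 or 2 (adjusted p = 0.0662 and 0.0543), and that of Slc2a1 without any 1 of the knockout replicates (0.0631, 0.0624 and 0.0606). Among the 6 transporters and flux regulators, 2 rose, none fell and 4 did not pass, with a median change of 0.13. That is 33.3% past the test, against 18.9% of all genes. Among genes whose higher group mean exceeded the array median it was 27.2%.

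**Figure D2:**
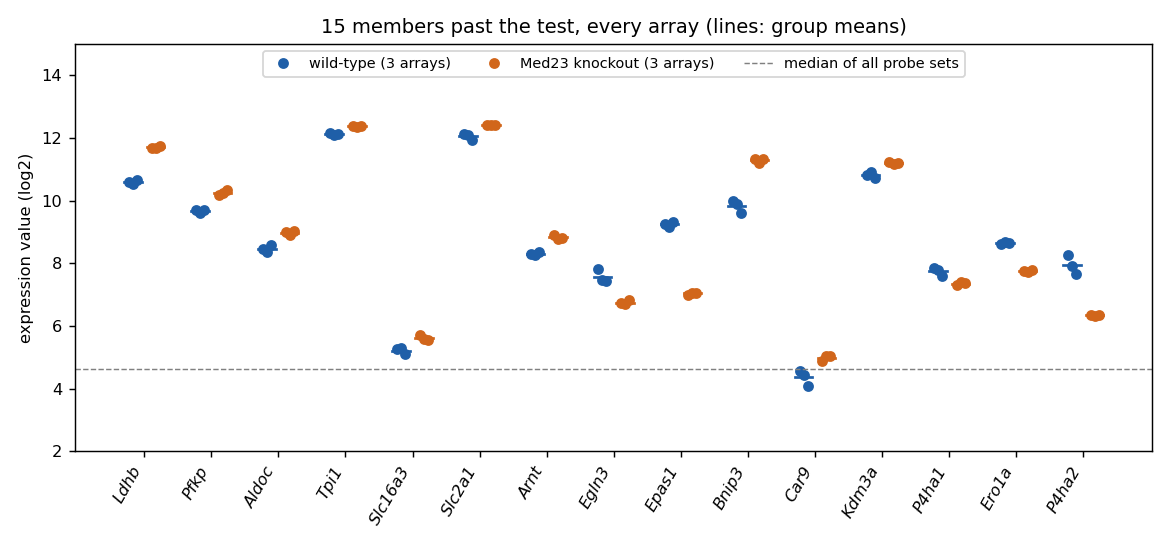
Log2 expression values (y axis) of the 15 members that passed the test, 1 point per array, with group means as lines; wild-type in blue and Med23 knockout in orange, and the array median (4.62) dashed. No gene has overlapping groups. By standard deviation, the wild-type arrays are spread more widely than the knockout arrays in all genes but Pfkp and Arnt. The wild-type spread is widest in Egln3, Bnip3, P4ha2 and Car9.

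Of the HIF alpha subunit genes, Epas1 fell and Hif1a did not pass the test. Epas1, which encodes HIF2A, was 9.26, 9.16 and 9.32 in wild-type and 6.99, 7.07 and 7.06 in knockout arrays. The groups lay more than 2 log2 units apart, and Epas1 fell by 2.21 on the log2 scale (SE 0.07, limma adjusted p = 1.30e-05), which is 4.62-fold lower. A second, dimmer probe set fell as well, from 6.03 to 4.96 (change -1.07, adjusted p = 0.00211). Hif1a was 10.73, 10.99 and 10.96 in wild-type and 11.01, 10.98 and 10.98 in knockout arrays, so its groups overlapped (0.10, SE 0.08, adjusted p = 0.504). The change of Hif1a exceeded that of Epas1 by 2.31 (exact permutation p = 0.1). Epas1 lies on chromosome 17 among genes that were lower as well: the median change of its 20 nearest brighter genes (mean above 7, 10 on each side) was -0.64, a value at or below -0.4 being found around 3.53% of 7618 such genes. The fall of Epas1 was larger than that, and the part of the chromosome stretch in it was not tested.

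Arnt, the shared partner of both alpha subunits, rose, from 8.30, 8.26 and 8.37 to 8.90, 8.78 and 8.81. The groups did not overlap and the change was 0.52 (SE 0.07, limma adjusted p = 0.00256), or 1.44-fold, with 4 of its 5 probe sets past the test upward, of which the dimmest pair lay below the array median. Among the oxygen-sensing hydroxylases, Egln3, which is itself a HIF target, was 7.81, 7.47 and 7.42 in wild-type and 6.72, 6.68 and 6.82 in knockout arrays. It fell by 0.83 on the log2 scale (SE 0.11, adjusted p = 0.00326), or 1.77-fold, on its brighter probe set, and the dimmer one missed the threshold (change -0.43, adjusted p = 0.0514). Its neighbours had a median change of 0.17.

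Egln1, the main sensor in most cells and a HIF target too, had its knockout arrays above the others without passing (0.33, SE 0.09, adjusted p = 0.0585). It passed without wild-type replicate 1 (0.42, adjusted p = 0.0151), the array least like the rest of its group. Egln2 (-0.03, adjusted p = 0.829) and Vhl, the recognition subunit of the ubiquitin ligase (0.09, adjusted p = 0.554), had overlapping groups. The change of Egln1 exceeded that of Egln3 by 1.16 (exact permutation p = 0.1). In sum, 1 of these 7 genes rose, 2 fell and 4 did not pass. The share past the test was 42.9%, against 18.9% of all genes and 27.2% of those whose higher group mean exceeded the array median. The median of 0.09 lay between 0.03 (wild-type replicate 1 dropped) and 0.11 (knockout replicate 3 dropped) when 1 array was left out, and was 0.05 with wild-type replicate 2 left out and 0.04 with knockout replicate 1 left out.

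Of the 11 remaining HIF targets, 3 rose, 3 fell and 5 did not pass the test. The share past the test was 54.5%, against 18.9% of all genes and 27.2% of those whose higher group mean exceeded the array median. The median change of the 11 targets, 0.007, had no stable sign or size. It was 0.11 without wild-type replicate 1, 0.05 and 0.02 on leaving out knockout replicate 1 or 2, and -0.005 when wild-type replicate 3 was dropped. Bnip3, which encodes a mitochondrial protein that promotes removal of mitochondria, had the largest rise of all members. It was 9.99, 9.88 and 9.60 in wild-type and 11.34, 11.20 and 11.33 in knockout arrays. Knockout arrays were all above the wild-type range, and the rise was 1.46 (SE 0.11, limma adjusted p = 0.000265), or 2.76-fold, on a single probe set. Kdm3a, a histone demethylase gene, rose by 0.40 (SE 0.07, adjusted p = 0.0105), from 10.81, 10.90 and 10.71 to 11.23, 11.17 and 11.21. Car9, the cell-surface carbonic anhydrase gene often read as a marker of hypoxia, was at 4.55, 4.44 and 4.09 in wild-type and 4.88, 5.05 and 5.04 in knockout arrays. It rose by 0.63 (SE 0.13, adjusted p = 0.0169), but its wild-type mean lay below the array median, and the call ended without knockout replicate 2 or 3 (adjusted p = 0.0682 and 0.0654).

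The 3 targets that fell encode enzymes of the endoplasmic reticulum. P4ha2, an alpha subunit of collagen prolyl 4-hydroxylase, was 8.25, 7.93 and 7.66 in wild-type and 6.35, 6.31 and 6.34 in knockout arrays. Wild-type arrays were spread and knockout arrays tight, with no overlap, and P4ha2 fell by 1.61 on the log2 scale (SE 0.14, limma adjusted p = 0.000498), or 3.06-fold. Its relative P4ha1 was 7.86, 7.78 and 7.61 in wild-type and 7.32, 7.39 and 7.35 in knockout arrays and fell by 0.40 on the log2 scale (SE 0.08, adjusted p = 0.0192), on both of its probe sets. That call ended without wild-type replicate 2 (adjusted p = 0.0679) and without knockout replicate 1, 2 or 3 (0.0745, 0.0613 and 0.0708). The change of P4ha1 minus that of P4ha2 was 1.22 (exact permutation p = 0.1).

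Ero1a, the oxidase that forms disulphide bonds in the endoplasmic reticulum, was 8.61, 8.69 and 8.64 in wild-type and 7.74, 7.72 and 7.78 in knockout arrays. All 3 of its probe sets fell, the brightest by 0.90 on the log2 scale (SE 0.06, limma adjusted p = 0.000163), or 1.86-fold. Ero1a lies on chromosome 14, and its 20 nearest brighter genes had a median change of -0.81, close to its own. Around the other members that passed, Epas1 apart, neighbour medians lay between -0.07 and 0.21. The highest was that of Ldhb, whose neighbours had a median change of 0.21, far below the gene's own rise of 1.12. The median over 7618 such genes was 0.04. The part of these neighbours in the rise of Ldhb was not tested. Without Epas1 and Ero1a, whose neighbours were low, 1 of 6 oxygen-sensing genes and 2 of 10 other targets fell.

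**Figure D3:**
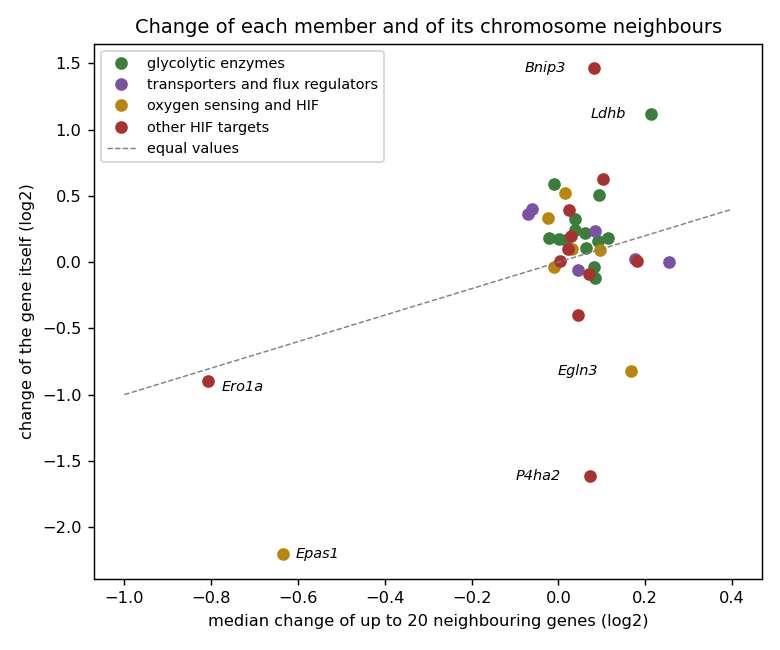
Change of each member (y axis, log2) against the median change of up to 20 neighbouring genes with a mean above 7 (x axis, log2), coloured by role group; the dashed line marks equal values. Ero1a lies near the line at -0.81 and -0.90, Epas1 lies below it, and the remaining members have neighbour medians from -0.07 to 0.25.

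Other well-known targets did not pass the test on their main probe sets. The angiogenic factor gene Vegfa (0.10, adjusted p = 0.513), Ankrd37 (0.01, adjusted p = 0.978), Ndrg1 (0.20, adjusted p = 0.55), the vasodilator peptide gene Adm (-0.09, adjusted p = 0.795) and Higd1a (0.01, adjusted p = 0.96) all had overlapping groups. Both Adm group means, 4.59 and 4.50, lay below the array median. Higd1a, a mitochondrial inner membrane protein gene, lay between 11.29 and 11.34 on all arrays, yet its 2 dimmer probe sets rose by 0.73 and 0.48 (adjusted p = 0.00208 and 0.0152). The probe set with the rise of 0.48 had means of 3.53 in wild-type and 4.01 in knockout, both below the array median. Vegfa likewise had a dimmer probe set that rose by 0.31 (adjusted p = 0.0293), and Hif1a one that rose by 0.36 (adjusted p = 0.031).

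Further genes of the same pathways were listed by function. Of 34 measured genes of glycolysis, gluconeogenesis and pyruvate entry outside the members, 4 rose and 6 fell, with a median of 0.02. Past the test were 29.4% of them, against 18.9% of all genes. This was close to the 27.2% found among genes whose higher group mean exceeded the array median. The fructose bisphosphatase genes Fbp2 and Fbp1, whose enzymes run against phosphofructokinase, were lower by -2.21 (adjusted p = 7.83e-05) and -1.33 (adjusted p = 0.000131). Fbp2 was 7.03, 6.95 and 6.94 in wild-type and 4.69, 4.55 and 5.04 in knockout arrays, and the knockout mean of Fbp1, 3.38, lay below the array median. Hkdc1, a hexokinase relative, fell (-0.78), and the kinase gene Pdk4 rose by 0.64. Of 21 genes listed for the tricarboxylic acid cycle, some of them genes of cytosolic relatives, 6 rose and 1 fell, with a median of 0.16. Idh1, a cytosolic relative, was among the rises (0.25). The share past the test was 33.3%, against 18.9% of all genes and 27.2% of those whose higher group mean exceeded the array median. The largest rises were those of Suclg2 (0.71), Idh2 (0.53), Sdhc (0.49) and Idh3b (0.28), and the gene that fell was Fh1 (-0.27).

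Of 45 further hypoxia response genes, 7 rose and 5 fell, with a median of 0.02. The share past the test was 26.7%, against 18.9% of all genes. It was close to the 27.2% found among genes whose higher group mean exceeded the array median. Plod2, a lysyl hydroxylase gene for collagen, fell (-1.26, SE 0.10, adjusted p = 0.000279), from 8.20, 8.19 and 8.43 to 6.90, 7.02 and 7.14. Cited1 (-1.16) and the carbonic anhydrase gene Car12 (-0.67) fell too, to knockout means of 4.28 and 4.05, below the array median. The secreted hormone gene Stc2 rose by 0.64. P4hb, singled out after its values were seen because it encodes the beta subunit that pairs with P4HA1 and P4HA2, fell (-0.58, SE 0.06, adjusted p = 0.000957). Its wild-type values were 11.80, 11.74 and 11.75 and its knockout values 11.16, 11.17 and 11.22. The lysyl hydroxylase gene Plod1 changed by -0.31 (adjusted p = 0.0636). Other genes of the same list with a role in collagen did not fall. P4ha3, a further alpha subunit gene of collagen prolyl 4-hydroxylase, rose by 0.34 (adjusted p = 0.0437) with both means, 2.53 and 2.86, below the array median, and the collagen cross-linking enzyme gene Lox changed by 0.002 (adjusted p = 0.992) at means of 3.21. These collagen-related genes were picked out after their values were seen. The basement membrane collagen genes Col4a1 and Col4a2, which are among the endoderm markers, fell (-3.41 and -3.71, with neighbour medians of -0.53 and -0.50), as did the endoderm factor genes Sox17 (-2.45) and Gata6 (-2.59). The part of endoderm-like cells in the falls of P4ha1, P4ha2, P4hb and Plod2 was not tested.

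**Figure D4:**
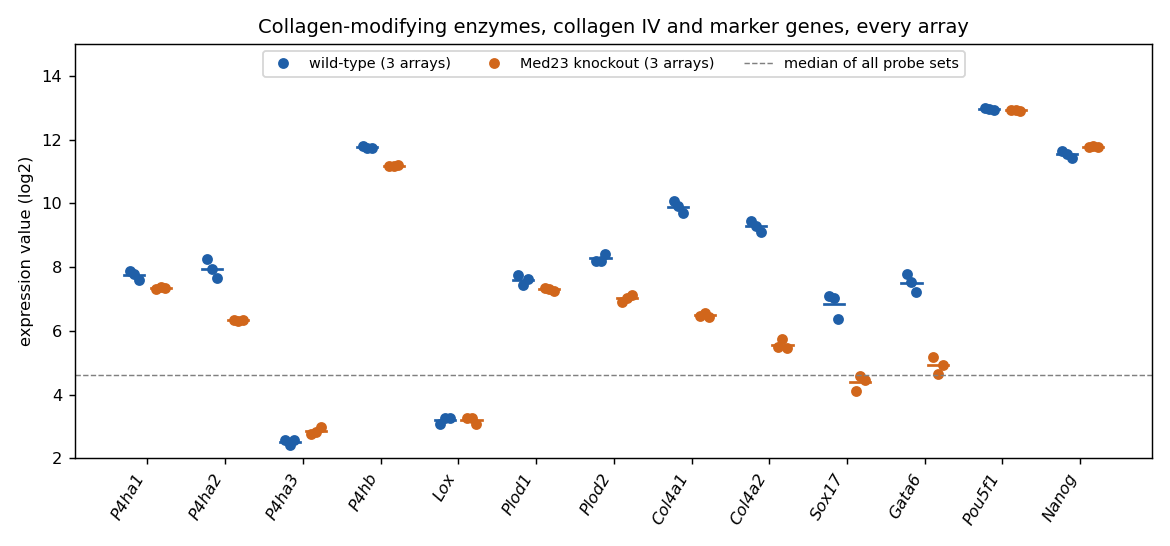
Log2 expression values (y axis) on every array for 7 collagen-modifying enzyme genes picked out after their values were seen, 2 collagen IV genes, 2 endoderm factor genes and 2 pluripotency genes, with group means as lines and the array median (4.62) dashed. Knockout arrays lie below wild-type arrays in P4ha1, P4ha2, P4hb, Plod1 (not past the test), Plod2, the collagen IV genes, Sox17 and Gata6, and above them in P4ha3; the groups overlap in Lox. Pou5f1 and Nanog, which did not pass the test, changed by -0.04 and 0.23.

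Pairs of related genes were compared in 13 cases, each by the difference of the 2 changes over the 6 arrays. With 20 ways to split the arrays, p could not go below 0.1, and it was 0.1 in 11 pairs (0.118 adjusted over the 13), so none could pass a threshold of 0.05. The largest differences were those of Hif1a against Epas1 (2.31), Ldha against Ldhb (-1.23), P4ha1 against P4ha2 (1.22) and Egln1 against Egln3 (1.16). Pfkl against Pfkm (-0.05, p = 0.6) and Pdk1 against Pdk3 (-0.02, p = 0.7) had differences within the spread of the arrays in the same exact test. Neither value shows that the 2 genes of a pair behaved alike.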

How the data were processed

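Total RNA of 3 wild-type and 3 Med23 knockout ES cell samples was hybridised as biotinylated cRNA to Affymetrix arrays, per the labels. A single deposited table held a log2 value per probe set and array, the log base being read from the range of the values. Per the submitters' processing notes, RMA and MAS5 were used; nothing says which gave these values. The array medians were 4.61 to 4.64, and the values were used as deposited.

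The table had 45101 probe sets, and the 64 controls among them were dropped. limma 3.58.1 in R 4.3.3 (lmFit, eBayes, genotype only) was fitted to the other 45037, as a two-sided test, p-values being adjusted over the whole table by Benjamini-Hochberg (threshold 0.05). The fit was tested on simulated data. Groups and replicate numbers came from the titles; how the replicates were made is not stated, so p-values measure the spread between these samples, which may be technical. Replicate numbers did not pair the arrays (correlations of deviations -0.133, -0.0588 and 0.000831). Symbols came from the platform annotation, updated through a RefSeq table of GRCm38.p6.

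Genes, lists and tests were chosen with earlier results of these data known. All members could be named, with array values for those past the test, and up to 4 genes of each context list with the largest changes past the test. Promoters were to be shown for up to 2 genes a role group, those with the largest changes past the test. Pfkp and Arnt also qualified and are not shown. Their promoters held 0 ACGTG each, and 4 and 1 GCGTG, respectively. Neighbour medians and shares by brightness were added after seeing the data. Alternatives changed the normalization, the variance model, array weights, a replicate block, the filter on dim probe sets, the probe set per gene, the threshold and each array in turn.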

Additional observations from a re-analysis of the deposited data

How the results depend on the processing

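All 15 calls kept their direction under the 13 refits, and 10 of the 15 (Ldhb, Pfkp, Aldoc, Arnt, Egln3, Epas1, Bnip3, Ero1a, Kdm3a and P4ha2) also kept their side of the threshold. With the replicate number as a block, Tpi1 (adjusted p = 0.105) and P4ha1 (0.0508) no longer passed. Egln1 passed without dim probe sets (0.0322), with a variance trend (0.0387), with array weights (0.0219) and without wild-type replicate 1 (0.0151). Among the enzymes, the count of rises went from 4 to 10 with a variance trend and to 7 with all probe sets averaged, and the median from 0.18 to 0.23 with array weights. Among transporters and flux regulators, the median of 0.13 became 0.17 with array weights and 0.0804 with probe sets averaged, and lay between 0.0818 and 0.17 when leaving out 1 array. There the 2 rises became 0 at a threshold of 0.01 and 0 to 2 when leaving out 1 array, and 1 fall, that of Pdk1, appeared with the probe set of lowest p or with probe sets averaged. The averaged Pdk1 change was -0.62 (adjusted p = 0.000441), the reverse of 0.002, since 1 of its 4 probe sets fell by 2.99. Among oxygen-sensing genes, 2 rather than 1 rose without dim probe sets, with a trend, with array weights or with the probe set of lowest p, and 1 to 2 when leaving out 1 array; 1 rather than 2 fell without Epas1, whose neighbours were low. Among other HIF targets, the 3 rises became 5, and the median 0.18 or 0.15, with the probe set of lowest p or probe sets averaged, and 1 at a threshold of 0.01. When leaving out 1 array, the median of the oxygen-sensing genes lay between 0.03 and 0.11 and that of the other targets between -0.005 and 0.11. Causes of these shifts were not tested further. Values close to the array median or under it, such as those of Car9, Adm and Slc16a3, limit what the arrays show.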
